A study of Arabidopsis thaliana with 8 samples.

Results

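The genes described here are the 7 Arabidopsis NF-YA genes NFYA1, NFYA2, NFYA3, NFYA5, NFYA8, NFYA9 and NFYA10, together with the microRNA family miR169. The genes were taken by locus, and 7 of 7 were found among the 20701 loci of the mRNA table. On the small RNA side, the rows MIR169_1 and MIR169_2 were taken by name from a table of 52 microRNA families. Seedlings that express CAHB12 of coffee from the 35S promoter, which is active in most tissues (35S:CAHB12), were compared with wild-type seedlings, all of the cultivar Columbia and 10 days past germination. CAHB12 is a homeodomain-leucine zipper class I transcription factor, and the study asked about coffee's response to drought, although the labels name no drought treatment of these plants. Each library came from whole seedlings in a pool of 50, with 2 pools per genotype for mRNA and 2 for small RNA. The design text speaks of a pair of transgenic lines, and no label ties a pool to a line. The pools are called biological replicates, but nothing says that they were grown separately, so p-values measure the spread between these pools.

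NF-Y is a trimeric transcription factor of the subunits NF-YA, NF-YB and NF-YC. NF-YB and NF-YC pair through histone-fold domains, and NF-YA then joins them and makes the contact with the CCAAT sequence in promoters. In Arabidopsis the microRNA miR169 pairs with a site in the mRNA of the 7 genes described here and directs their cleavage, whereas NFYA4, NFYA6 and NFYA7 escape it. Drought and abscisic acid are known to lower miR169 and to raise NFYA5, which acts in guard cells and lowers water loss through stomata.

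Total mRNA counts were 15424261 and 16615556 in the 35S:CAHB12 libraries and 15682546 and 19436632 in the wild-type libraries. Shoot and root markers were present in every library, with 4 of 4 and 8 of 8 listed. The root markers summed to 1694 and 1563 CPM in 35S:CAHB12 and 1386 and 1323 CPM in wild type, and the shoot markers to 16096 and 16399 CPM in 35S:CAHB12 and 18286 and 16310 CPM in wild type. LHCB1.1, LHCB2.1 and PYK10 were at 0.739, 0.667 and 1.23 times the wild-type level, and RBCS1A and RCA at 1.003 and 1.035 times. Of the 8 root markers 3 had a log2 fold change above 0 and 5 below, with NRT2.1 and COBL9 at 0.637 and 0.646 times. PYK10 alone made most of the root sum, with 1524 and 1384 CPM in 35S:CAHB12 and 1214 and 1143 CPM in wild type. None of these markers passed the test described below. By that test 2 of the 4 shoot and 3 of the 8 root markers had an unadjusted p under 0.05, against 7.92% of all loci tested. The part of tissue make-up in the NF-YA levels was not tested. Of 4 floral organ genes SEP3 was listed, with 23 and 9 counts in 35S:CAHB12 and 47 and 10 counts in wild type, and AP3, PI and AG were not among the listed loci. No coffee transcript is among the listed loci, and the CAHB12 level in these plants was not measured here. The small RNA columns held 7638192 and 6975406 reads (35S:CAHB12) and 16715396 and 9463330 reads (wild type), computed from what 1 read was worth per column.

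None of the 7 miR169-targeted genes passed the test between 35S:CAHB12 and wild-type seedlings. Their means were 0.56 to 0.98 times the wild-type level in the fitted model, with NFYA10 the lowest. The test was edgeR's quasi-likelihood test with Benjamini-Hochberg adjustment over 20298 loci, in which 0.0838% of loci passed at an adjusted p under 0.05. Of the 7 genes, 0 passed, and 0 had an unadjusted p under 0.05, which 7.92% of all loci tested had. DESeq2 and limma on log2 RPKM likewise called 0 of the 7. The median log2 fold change was -0.17 over the 7 genes and 0.0065 over all loci tested. In bulk seedling RNA, fewer cells of a type and less RNA per cell cannot be told apart. Levels below are counts scaled to the library total with TMM factors (CPM). Where genes are compared with each other, the same value is given per kilobase of the transcript length deposited by the authors (RPKM). Whether that length leaves out introns was not tested, and orders, shares and sums per length depend on it.

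NFYA5 (AT1G54160), the drought regulator of the family, stood at 9.10 and 5.83 CPM in 35S:CAHB12 seedlings, against 7.22 and 9.78 CPM in wild-type seedlings. The groups overlapped: the lowest library was the second 35S:CAHB12 pool and the highest the second wild-type pool. The means were 7.47 ± 2.31 CPM in 35S:CAHB12 and 8.50 ± 1.81 CPM in wild type (SD, n = 2 each), a log2 fold change of -0.20 (SE 0.24, edgeR adjusted p = 0.855). The 95% interval of the fold ran from 0.594 to 1.28. The 2 pools of each genotype lay farther apart than the genotype means. The direction turned when either second pool was left out, to 0.093 without the 35S:CAHB12 one and 0.041 without the wild-type one. Its gene model overlaps those of AT1G54150 and AT1G07943 in the name table, with which reads may be shared.

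NFYA2 (AT3G05690) and NFYA10 (AT5G06510) are close relatives that act in leaf growth. NFYA2, which has also been tied to stress-induced early flowering, had 8.47 and 8.84 CPM in 35S:CAHB12, against 8.43 and 11.2 CPM in wild type. The second wild-type pool was the highest, and the other 3 libraries lay within 0.5 CPM of each other. Its log2 fold change was -0.19 (SE 0.17, edgeR adjusted p = 0.801).

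NFYA10 was the least abundant of the family and had the lowest fold change. It had 35 and 13 counts in 35S:CAHB12, against 44 and 50 counts in wild type, or 2.21 and 0.798 CPM against 2.81 and 2.59 CPM. Both 35S:CAHB12 pools were below both wild-type pools, and the second 35S:CAHB12 pool was the lowest. The log2 fold change was -0.84 (SE 0.41, edgeR adjusted p = 0.658, lower in 2 of 2 pools). Its 95% interval ran from -1.79 to 0.11, so a fall to 0.289 times the wild-type level and no fall at all were both inside it. The exact Poisson intervals of the 35S:CAHB12 pools did not meet, at 1.54 to 3.08 CPM and 0.425 to 1.36 CPM, so these pools differed by more than counting error. Without the second 35S:CAHB12 pool the log2 fold change was -0.28, and without the first it was -1.75. That second pool also carried the most seed storage mRNA. Of 6 seed and embryo markers, 4 were listed, and they summed to 2.47 and 115.9 CPM in 35S:CAHB12 and 18.3 and 43.9 CPM in wild type. LEC1 and ABI3 were not among the listed loci. The part of seed material in the NFYA10 and NFYA5 levels was not tested.

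**Figure D1:**
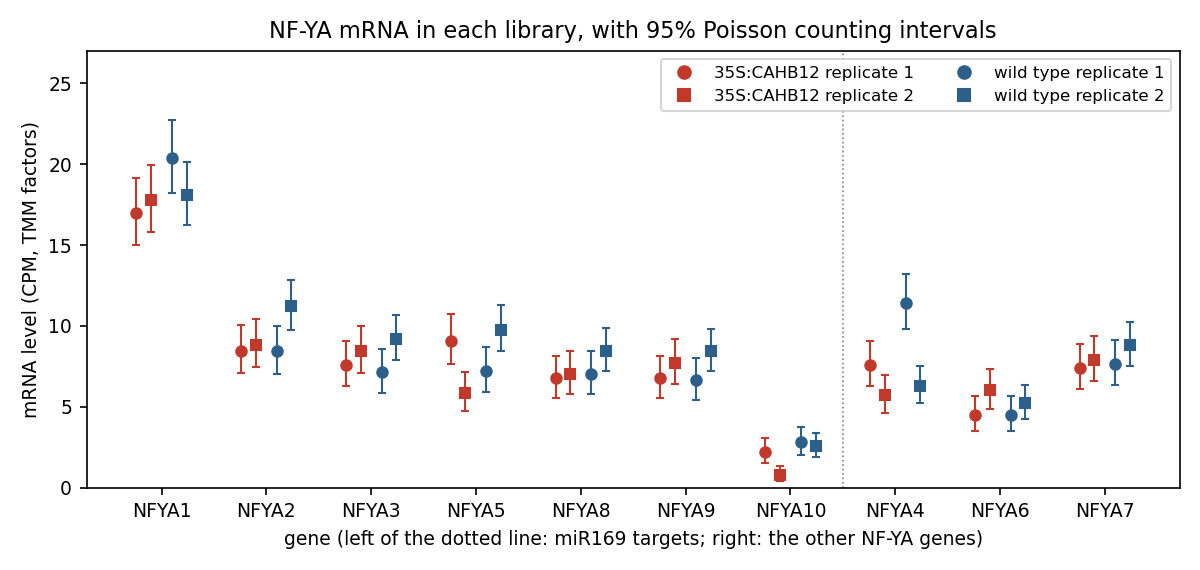
mRNA level of the 10 NF-YA genes in CPM (y axis) in each library, with 35S:CAHB12 left of wild type and bars for the exact 95% Poisson interval of the count. The genotypes' points overlap for 8 of the 10 genes, and NFYA10 in the second 35S:CAHB12 pool is the lowest point, at 0.798 CPM.

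NFYA1 (AT5G12840) is needed for embryo development. It had 17 and 17.8 CPM in 35S:CAHB12, against 20.4 and 18.1 CPM in wild type. The groups did not overlap, but the upper 35S:CAHB12 pool and the lower wild-type pool were 17.8 and 18.1 CPM. The log2 fold change was -0.14 (SE 0.12, edgeR adjusted p = 0.789), and the 95% interval of the fold ran from 0.745 to 1.101, the narrowest of the family. NFYA1 and NFYA10 were the 2 of 7 genes whose groups did not overlap with 35S:CAHB12 lower, where 19.3% of all loci tested did so.

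NFYA9 (AT3G20910), a close relative of NFYA1 with roles in pollen and embryo development, had 6.76 and 7.73 CPM in 35S:CAHB12 and 6.64 and 8.43 CPM in wild type. Its gene model overlaps that of AT3G20920 in the name table. NFYA3 (AT1G72830) and NFYA8 (AT1G17590) act together in early embryo development. NFYA3 had 7.58 and 8.47 CPM in 35S:CAHB12, against 7.15 and 9.21 CPM in wild type. NFYA8 had 6.76 and 7.06 CPM in 35S:CAHB12, against 7.02 and 8.48 CPM in wild type. In these 3 genes the 2 genotypes overlapped, and the second wild-type pool was the highest library in each. NFYA9 had a log2 fold change of -0.062, NFYA3 of -0.033 and NFYA8 of -0.17, with edgeR adjusted p of 0.952, 0.977 and 0.815.

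All 7 log2 fold changes were below 0, as were 9858 of the 20298 loci tested. This did not hold when any 1 of 3 libraries was left out. Without the second wild-type pool 3 of the 7 were below 0 and 4 above, without the first 35S:CAHB12 pool 5 were below and 2 above, and without the second 35S:CAHB12 pool 6 were below and 1 above. For the 6 genes other than NFYA10, the 95% intervals of the fold reached from 0.594 (NFYA5) to 1.30 (NFYA3), so a doubling or a fall to 0.5 of the wild-type level lay outside them.

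The 3 NF-YA genes without a miR169 site did not pass either. NFYA4 (AT2G34720) had 7.58 and 5.71 CPM in 35S:CAHB12 and 11.4 and 6.31 CPM in wild type, a log2 fold change of -0.40 (SE 0.28, edgeR adjusted p = 0.753). The first wild-type pool was the highest, and without it the log2 fold change was 0.074. NFYA6 (AT3G14020) had 4.49 and 6.02 CPM in 35S:CAHB12, against 4.47 and 5.22 CPM in wild type. NFYA7 (AT1G30500) had 7.40 and 7.92 CPM in 35S:CAHB12, against 7.66 and 8.79 CPM in wild type. Both overlapped between genotypes, with a log2 fold change of 0.11 for NFYA6 and -0.11 for NFYA7 (edgeR adjusted p = 0.917 for NFYA6 and 0.884 for NFYA7). The median log2 fold change of these 3 genes was -0.11, against -0.17 for the 7 with a site. The NFYA6 gene model overlaps that of AT3G02825 in the name table.

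By the deposited length, NFYA1 was the most abundant NF-YA mRNA, at 6.28 ± 0.495 RPKM over the 4 libraries (SD). Its lowest library, at 5.83 RPKM, was above those of every other family member except NFYA4, which reached 6.14 RPKM in the first wild-type pool. NFYA10 was the least abundant, at 1.02 ± 0.440 RPKM, and its highest library was below the lowest of every other gene. Between them came NFYA7 (4.25 RPKM), NFYA4 (4.17), NFYA2 (3.87), NFYA6 (3.79), NFYA5 (3.77), NFYA9 (3.37), NFYA3 (3.22) and NFYA8 (3.13), each as the mean of 4 libraries. Neighbours in this order from NFYA7 to NFYA8 overlapped in their ranges.

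The genes of the close pair NFYA2 and NFYA10 thus stood 3.87 and 1.02 RPKM apart, while NFYA3 and NFYA8 stood at nearly the same level. Summed over the 7 miR169-targeted genes, the level was 23.7 and 22.9 RPKM in 35S:CAHB12, against 24.2 and 27.9 RPKM in wild type. The means were 23.3 ± 0.622 RPKM in 35S:CAHB12 and 26.0 ± 2.66 RPKM in wild type (SD, n = 2 each). The 7 genes made up 67.6% and 65.9% of all NF-YA mRNA per length in 35S:CAHB12, against 64.0% and 69.9% in wild type. The share of mRNA open to miR169 therefore had both 35S:CAHB12 pools between the wild-type pools.

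**Figure D2:**
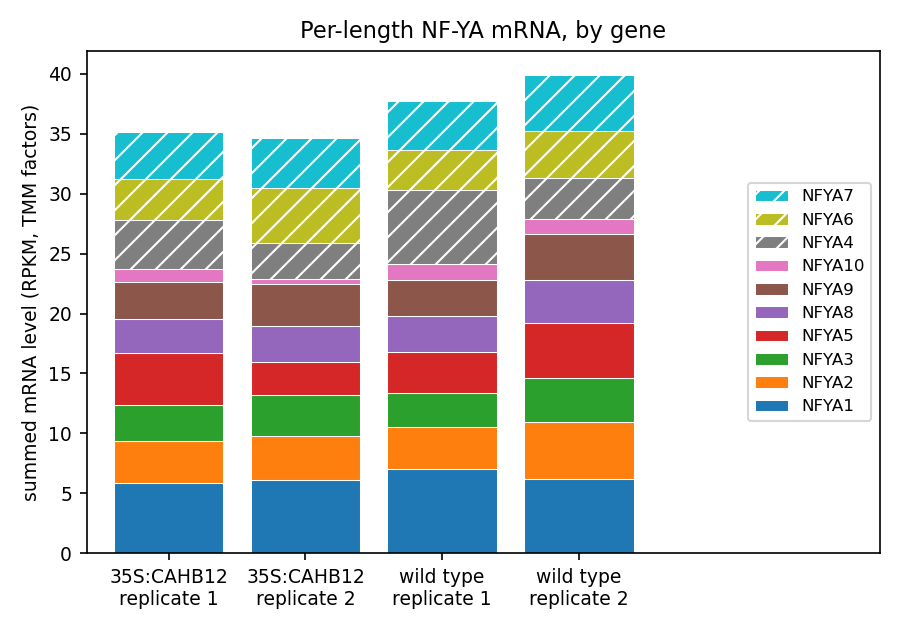
Per-length mRNA level of the 10 NF-YA genes (RPKM, y axis) stacked for each library, with the genes that lack a miR169 site hatched. The unhatched 7 genes sum to 23.7 and 22.9 RPKM in 35S:CAHB12 and 24.2 and 27.9 RPKM in wild type, with NFYA1 the thickest unhatched layer and NFYA10 the thinnest.

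Expression of the genes named NF-YB and NF-YC, the partner classes, was set beside that of NF-YA. The lists follow the gene names, and whether each member joins NF-YA was not tested. Of 13 NF-YB genes, 9 were listed and 8 tested, and of 13 NF-YC genes, 9 were listed and tested. By edgeR 0 of the 8 and 0 of the 9 passed, with 3 and 0 at an unadjusted p under 0.05, against 7.92% of all loci tested. The median log2 fold changes were -0.0054 (NF-YB) and -0.076 (NF-YC).

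NFYB1 (AT2G38880), which gives drought tolerance when overexpressed, had 6.00 and 7.30 CPM in 35S:CAHB12, against 3.70 and 5.12 CPM in wild type. Both 35S:CAHB12 pools were above both wild-type pools, as for 20.2% of all loci tested, with a log2 fold change of 0.58 (SE 0.22, edgeR adjusted p = 0.597). NFYB13 had 8.13 ± 0.389 CPM in 35S:CAHB12 and 6.10 ± 0.145 CPM in wild type (SD, n = 2 each; log2 fold change 0.41). NFYB11 had 9.90 ± 0.411 CPM in 35S:CAHB12 and 13.3 ± 2.25 CPM in wild type (SD, n = 2 each; log2 fold change -0.42). These 2 genes also missed the threshold (edgeR adjusted p = 0.599 and 0.597), and the NFYB11 gene model overlaps AT2G27460 and AT2G08205.

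NFYB3, a partner of the flowering regulator CONSTANS (CO), had a log2 fold change of 0.21 (edgeR adjusted p = 0.638). Among NF-YC genes, NFYC2, NFYC11, NFYC10 and NFYC1 had the smallest p. Their log2 fold changes were -0.42, -0.19, -0.23 and 0.23, with edgeR adjusted p of 0.663, 0.685, 0.725 and 0.758. The gene models of NFYC2 and NFYC11 overlap other annotated loci. Per length the 9 listed NF-YB genes summed to 196.4 and 184.6 RPKM in 35S:CAHB12 and 192.3 and 172.1 RPKM in wild type. The 9 NF-YC genes summed to 123.5 and 135.4 RPKM in 35S:CAHB12 and 132.2 and 129.4 RPKM in wild type. In every library the genes listed under either name thus summed to more per length than the 34.7 to 39.9 RPKM of the 10 NF-YA genes together. How much of these sums comes from genes that join NF-YA was not tested. For NF-YB this rested mostly on NFYB2 and NFYB3, at 97.1 and 63.5 RPKM on average over the libraries. The next most abundant listed NF-YB gene, NFYB11, had 8.1 RPKM. The NFYB2 gene model overlaps those of AT5G07015 and AT5G47650, with which reads may be shared.

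**Figure D3:**
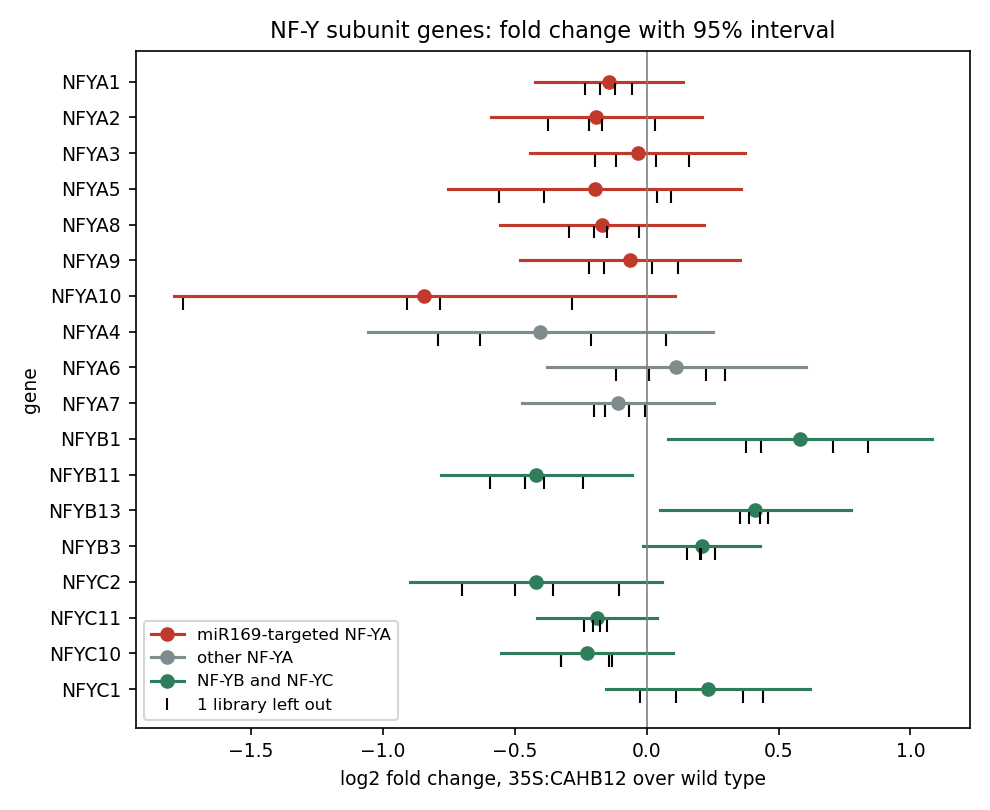
Log2 fold change of 35S:CAHB12 over wild type (x axis) for the 10 NF-YA genes and the 4 NF-YB and 4 NF-YC genes of smallest p (y axis), with the 95% interval as a line and black ticks for the fits that leave out 1 library. The intervals of the 7 miR169-targeted genes include 0, and the ticks of NFYA10 spread from -1.75 to -0.28.

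Genes reported to act around NF-Y or miR169 in Arabidopsis were also read. Of 6 such genes 5 were tested and 0 passed, with 2 at an unadjusted p under 0.05, against 7.92% of all loci tested. The high-affinity nitrate transporter NRT2.1 had 3.41 and 2.76 CPM in 35S:CAHB12, against 5.17 and 4.55 CPM in wild type (log2 fold change -0.65, SE 0.22, edgeR adjusted p = 0.551). Both 35S:CAHB12 pools were below both wild-type pools, as for 19.3% of all loci tested. The flowering gene SOC1 had 29.4 and 24.4 CPM in 35S:CAHB12, against 21.6 and 21.4 CPM in wild type (log2 fold change 0.32, edgeR adjusted p = 0.605). The nitrate transporter NRT1.1, CO and the flowering repressor FLC differed by -0.02, -0.12 and 0.50 on the log2 scale, with edgeR adjusted p of 0.976, 0.933 and 0.656. The gene models of CO and FLC overlap other annotated loci. FT, the mobile flowering signal, had 0 and 9 counts in 35S:CAHB12 and 14 and 7 counts in wild type, too few for the test.

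The loci whose pattern over the 4 libraries was most like that of NFYA5 were NAC074, AT4G24860 and AT1G80970. Likeness was the root mean square difference of log2 CPM, centred per locus, and was 0.011, 0.035 and 0.044 among 20297 loci compared. NAC074 had 1.01 and 0.614 CPM in 35S:CAHB12, against 0.766 and 1.09 CPM in wild type. At a similar level, the 0.798 CPM of NFYA10 in the second 35S:CAHB12 pool, the exact 95% Poisson interval ran from 0.425 to 1.36 CPM. Being closest among 20297 loci over 4 libraries does not show shared regulation with NFYA5, which was not tested. Of the NF-YA genes NFYA2 was the closest to NFYA5, at 0.246 (rank 2625 by likeness), and NFYA10 the farthest, at 0.489.

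Before the miR169 values, one property of the small RNA table bears on which column is which genotype. Columns were given their genotype from the library codes in the sample labels. In both genotypes the replicate 2 sample carries 2 library codes and the replicate 1 sample carries 1, so this difference goes with the replicate number. The authors' deposited table carries its own log2 fold change, with groups that the header does not name. For 50 of the 52 families that value was closer to the ratio of replicate 2 over replicate 1, summed over genotypes, than to the ratio of 35S:CAHB12 over wild type. The median distance was 0.0178 from the replicate ratio and 0.402 from the genotype ratio, in log2 units. For MIR169_1 the authors' deposited table gives 0.034, and the values give -0.38 for 35S:CAHB12 over wild type and 0.093 for replicate 2 over replicate 1. For MIR169_2 the authors' deposited table gives 0.21, and the same ratios were -0.16 and 0.18. The authors' deposited table gives an FDR of 0.925 for MIR169_1 and 0.598 for MIR169_2. Whether its comparison or the column labels depart from the genotypes was not tested, and the results below follow the labels.

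**Figure D4:**
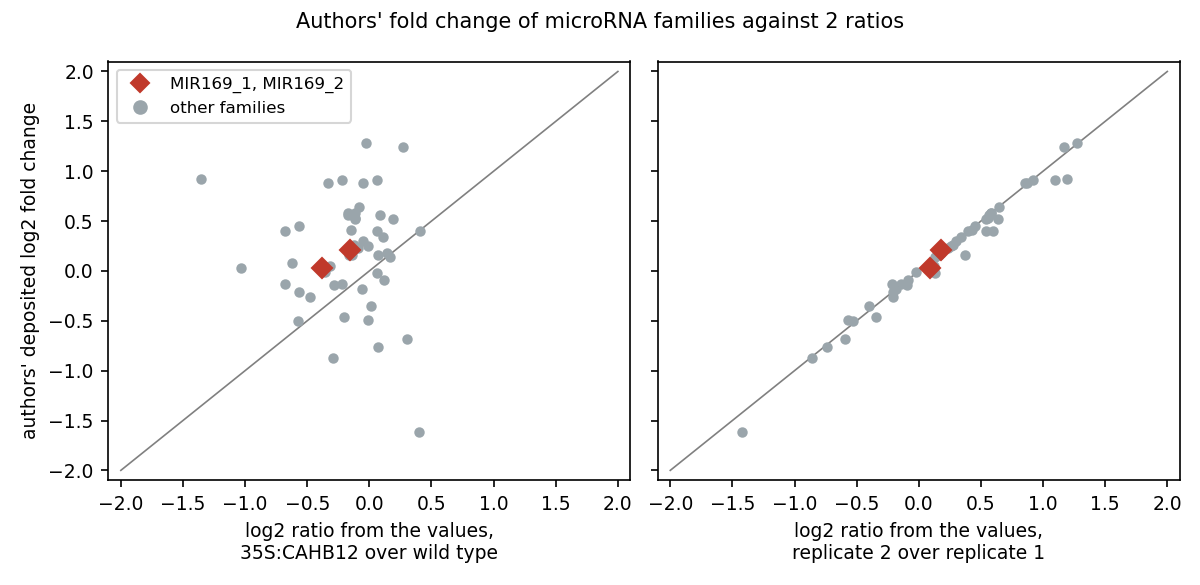
Log2 fold change in the authors' deposited table (y axis) for 52 microRNA families, against the log2 ratio of 35S:CAHB12 over wild type (left x axis) and of replicate 2 over replicate 1 (right x axis). Red diamonds are the miR169 families and the grey line marks equal values, near which the points lie in the right panel, with a median distance of 0.0178.

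Both miR169 families were rare and neither passed the test. MIR169_1 had 33 and 37 reads in 35S:CAHB12, against 107 and 58 reads in wild type. Scaled to the library total (RPM), this was 4.32 and 5.30 RPM in 35S:CAHB12 and 6.40 and 6.13 RPM in wild type. Both 35S:CAHB12 samples were below both wild-type samples, but the exact 95% Poisson intervals overlapped, at 3.74 to 7.31 RPM in the second 35S:CAHB12 sample and 4.65 to 7.92 RPM in the second wild-type sample. On the log2(RPM + 1) scale, which shrinks changes of rare families, the fold change was -0.33 (SE 0.36, limma adjusted p = 0.972, lower in 2 of 2 samples). Limma gave both miR169 families the same SE, 0.364, from a variance shared over the 29 families tested. Its SE, p and intervals therefore do not measure the spread of either miR169 family by itself. Of the 29 families tested, 17.2% had groups that did not overlap with 35S:CAHB12 lower.

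MIR169_2 had 56 and 48 reads in 35S:CAHB12, against 113 and 86 reads in wild type, or 7.33 and 6.88 RPM against 6.76 and 9.09 RPM. The groups overlapped, and the second wild-type sample was the highest. The means were 7.11 ± 0.318 RPM in 35S:CAHB12 and 7.92 ± 1.65 RPM in wild type (SD, n = 2 each), with a log2 fold change of -0.13 on the log2(RPM + 1) scale (SE 0.36, limma adjusted p = 0.972). The 95% intervals of the fold on that scale were 0.481 to 1.32 for MIR169_1 and 0.553 to 1.52 for MIR169_2.

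Of the 29 families tested, limma called 0 (0%), with 0 at an unadjusted p under 0.05, and edgeR on the recovered reads also called 0, again with 0 at an unadjusted p under 0.05. By mean level MIR169_2 ranked 27 and MIR169_1 ranked 29 of the 52 families. Together they made 11.7 and 12.2 RPM in 35S:CAHB12, against 13.2 and 15.2 RPM in wild type. The table does not say which of the 14 MIR169 loci of the name table each row holds, and 0 of those loci are among the listed mRNA loci, so precursor transcripts were not compared.

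**Figure D5:**
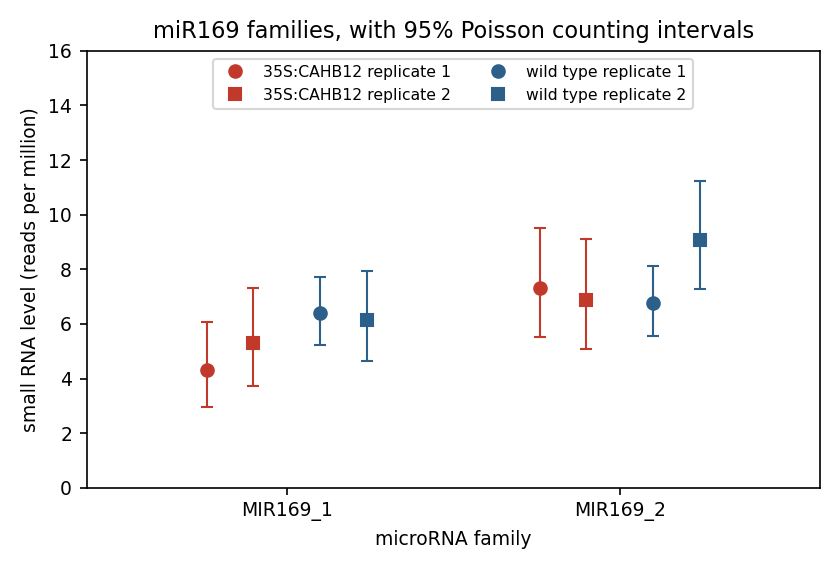
Level of MIR169_1 and MIR169_2 (RPM, y axis) in each small RNA sample, with 35S:CAHB12 left of wild type and bars for the exact 95% Poisson interval of the reads. The MIR169_1 points of 35S:CAHB12, at 4.32 and 5.30 RPM, lie below the wild-type points at 6.40 and 6.13 RPM with overlapping bars, and the MIR169_2 points overlap.

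Side by side, the miR169 sum and the sum of its 7 target mRNAs were both lower on average in 35S:CAHB12 than in wild type, and neither the families nor the genes passed the test. The miR169 sum was 11.7 and 12.2 RPM in 35S:CAHB12 and 13.2 and 15.2 RPM in wild type. The target mRNA sum was 23.7 and 22.9 RPKM in 35S:CAHB12 and 24.2 and 27.9 RPKM in wild type. The design text says that both RNA types came from the same plants, but no label ties a small RNA sample to an mRNA pool beyond its replicate number. With 2 pools per genotype no relation between microRNA and target was tested.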

How the data were processed

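The mRNA values are raw read counts per locus, per the file headers. The deposited table also holds CPM, RPKM and a transcript length (other unit) computed by the authors, of which only the length was used. The length was 5951 bases for FLC and 602 bases for NFYB3, and whether it leaves out introns was not tested. BWA 0.5.8c, Bowtie, edgeR and the TAIR9 build appear in the submitters' processing notes, without roles. Names and overlaps come from RefSeq (TAIR10.1), where the 7 genes matched. The use of strand in counting is not known from the sources.

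The small RNA values, deposited by the authors in another unit headed RPKM, had lost decimal marks at 1 and above. In each column all could be placed as whole multiples of 1 read, so they were taken as RPM (reads scaled to the library total). Of 208 values 163 were restored by placing the mark where the samples of a family lie closest. Only places that gave whole reads within 0.01 were allowed. That 100% were whole reads was thus a condition of the placing and no check of it. Where a family could be shifted as a whole, the lowest place was taken. A higher place for a miR169 family would make all 4 read counts multiples of 10.

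Counts were tested with edgeR 4.0.16 in R 4.3.3 (TMM, filterByExpr, glmQLFTest, no covariate, adjusted p under 0.05, common biological coefficient of variation 0.103). The SE is the size of the log2 fold change over the root of F. Small RNA was tested with limma 3.58.1 on log2(RPM + 1) for families of at least 5 RPM on average. Alternatives included DESeq2 1.42.0 and those named in the closing section. Simulated data with 200 of 20298 loci planted gave recovery of 42.25% at 1.5-fold, 85.9% at 2-fold and 96.55% at 4-fold. Every simulated locus varied by the common coefficient of variation, and changes were planted at any abundance. The recovery therefore does not give the power for single NF-YA genes. Poisson intervals cover counting error only. The genes and lists were chosen with earlier results of these data known. Named were the 10 NF-YA genes, both miR169 rows, the 6 genes around NF-Y, and up to 4 NF-YB and 4 NF-YC genes by the smallest p. Figures used Python 3.11.15 and matplotlib 3.10.9.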

Additional observations from a re-analysis of the deposited data

How the results depend on the processing

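Under all 13 alternatives for mRNA and all 10 for small RNA, 0 of the 7 NF-YA genes and 0 of the 2 miR169 families passed, and adjusted p for NFYA10 ranged from 0.1998 to 0.9999. The number of loci called over the whole table went from 17 to 596 with a replicate block, 31 with robust fitting, 76 in DESeq2, 9 in limma on log2(RPKM + 0.5) and 41 at an adjusted p under 0.1, and ranged from 16 to 411 with 1 library left out. The cause was not tested. Nothing in the labels says that the replicate numbers pair the pools, though the small RNA samples of replicate 2 each carry 2 library codes. The deviations of the replicate 1 pools from their group means had a correlation of 0.28 over loci. With a replicate block NFYA10 had the lowest adjusted p of the 7 genes, 0.1998, and 3 microRNA families passed limma against 0 without it. MIR169_1 was not among them (limma adjusted p = 0.239 with the block, over alternatives 0.239 to 0.9996). In edgeR on the recovered reads with a replicate block, chosen after seeing the data, 0 families passed. Over the 10 NF-YA, 4 NF-YB, 4 NF-YC and 5 tested surrounding genes and the miR169 families, directions turned only in fits with 1 library left out. Those log2 fold changes ranged from -0.37 to 0.032 (NFYA2), -0.20 to 0.16 (NFYA3), -0.56 to 0.093 (NFYA5), -0.22 to 0.12 (NFYA9), -0.79 to 0.074 (NFYA4), -0.115 to 0.30 (NFYA6), -0.024 to 0.44 (NFYC1), -0.44 to 0.24 (CO), -0.095 to 0.053 (NRT1.1) and -0.32 to 0.062 (MIR169_2). With 1 library left out, a lone pool is assumed to vary like the others. Depth limits NFYA10, with 13 to 50 counts per library, and the miR169 families, with 33 to 113 reads.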

Other observations

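Guard cell genes were read because NFYA5 is known to act in that cell type. FAMA, a regulator of guard cell identity, had 17.6 ± 0.409 CPM in 35S:CAHB12 and 16.4 ± 0.555 CPM in wild type (SD, n = 2 each). The potassium channel gene KAT1 had 25.5 ± 0.705 CPM in 35S:CAHB12 and 21.9 ± 3.46 CPM in wild type (SD, n = 2 each). MYB60, a regulator of stomatal opening, had 8.19 ± 0.390 CPM in 35S:CAHB12 and 7.62 ± 0.486 CPM in wild type (SD, n = 2 each). By edgeR 0 of these 3 genes passed, 0 had an unadjusted p under 0.05, and their median log2 fold change was 0.10. All 3 had a log2 fold change above 0. In KAT1 and FAMA both 35S:CAHB12 pools were above both wild-type pools, as for 20.2% of all loci tested, and in MYB60 the groups overlapped.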
